A study of Rattus norvegicus with 2 samples.

Results

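The 8 genes described here serve sterol efflux and the liver X receptors (LXR), and were compared in the established rat prostate cancer line AT6.1. They are Abca1, Abcg1, Mylip, Lpcat3, Pltp, Apoe, Nr1h3 and Nr1h2, 8 of the 14217 genes with a probe set of their own on the Affymetrix array. All 16 probe sets annotated to exactly 1 of them were taken, out of 31099, and a gene's probe set of highest mean log2 signal stands for that gene. The genes were chosen by their role in this pathway, with earlier results of these data known. Those results included the log2 ratios of Abca1 and Abcg1 between these arrays. The ratios are thus a description and carry no test. The cells in question were clone 7, which had received Ndrg-1 (N-myc downstream regulated gene-1) in the vector pcDNA3, and they were set against clone 9, which had received pcDNA3 with no insert. Both grew in medium with 10% serum under selection with 0.3 mg/mL G418. Each group was 1 clone on 1 array, so clone, culture, array and insert cannot be told apart, and no p-value can be given.

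LXRα (Nr1h3) and LXRβ (Nr1h2) are nuclear receptors that bind oxysterols and the synthesis intermediate desmosterol. As heterodimers with retinoid X receptors (RXR) they switch on genes that move cholesterol out of the cell or limit its uptake. Many of these genes carry a direct repeat of the nuclear receptor hexamer with a spacer, named DR4, to which the heterodimer binds. Prostate cancer cells use cholesterol for membranes and as a steroid precursor, and the same receptors are best known from macrophages and liver.

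Signals are the deposited linear intensities. Ratios are Ndrg-1 over vector on the log2 scale, after the vector signals were shifted by 0.0048 on that scale. Signals under a floor of 31.0, the median of all signals, were set to it, and a ratio against the floor is a bound. How far a gene's own probe sets disagree is the only error the table holds. The SD of that disagreement was 0.29 on the log2 scale for genes with a mean signal under 100, 0.22 between 100 and 500, and 0.16 at 500 and over. Ndrg1 itself, the transfected gene, had 1353 in the Ndrg-1 clone and 1062 in the vector clone on its brighter probe set (log2 ratio 0.34), and 154 and 181 on the other (-0.24), so these values do not show the overexpression the label states. Whether they detect the insert was not tested, and "Ndrg-1 clone" here means the clone so labelled. Epithelial markers were mostly at background. Of 10 on the array, 2 passed the floor in 1 or both clones (Krt8 at 38.7 in the Ndrg-1 clone and 46.2 in the vector clone, Tmprss2 at 35.4 and 18.7), while Cdh1, Epcam, Krt18 and Pbsn were under it in both. Of 7 mesenchymal markers, 6 were above it, among them Vim and S100a4 (-0.50), and Col1a1 alone reached 2-fold (167 in the Ndrg-1 clone and 76.9 in the vector clone). Of 12 macrophage markers 4 passed the floor in 1 or both clones, Csf1r in the vector clone alone, with ratios from -0.56 for Cd14 to 0.85 for Cd68. The summed signal over all 12 was 528 in the Ndrg-1 clone and 537 in the vector clone. Most of both sums came from Cd68 (206 in the Ndrg-1 clone, 114 in the vector clone) and Cd14 (210 and 308), which went in opposite directions. The leukocyte and macrophage markers Ptprc, Adgre1, Itgam and Tyrobp were under 5 in both arrays. The part of such markers in the results was not tested.

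Among the 8 genes Abcg1 and Abca1, which export sterols, were 2-fold or more lower in the Ndrg-1 clone, and the lipid transfer protein gene Pltp was 2-fold or more higher. Over all 9182 measured genes, 1.50% were at least 2-fold lower and 1.62% at least 2-fold higher, together 3.13%. In all, 4 of the 8 had a ratio below 0 and 4 above, and their median log2 ratio was -0.10, beside 0.0029 over all measured genes. Of the 6 LXR target genes in the set, 3 were below 0 (Abcg1 at -1.94, Abca1 and Lpcat3) and 3 above (Apoe, Mylip and Pltp at 1.06). Apoe passed the floor in the Ndrg-1 clone alone, so its ratio is a bound that could only lie above 0. The counts above 0 and the median of the 8 include that bound. With Mylip and Pltp above 0, the target genes did not share a direction. Of the receptors, Nr1h3 lay above 0 and Nr1h2 below it, a sign that turned for Nr1h2 when the arrays were scaled to the hybridisation spikes. In bulk RNA, fewer expressing cells and less transcript per cell cannot be told apart.

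**Figure D1:**
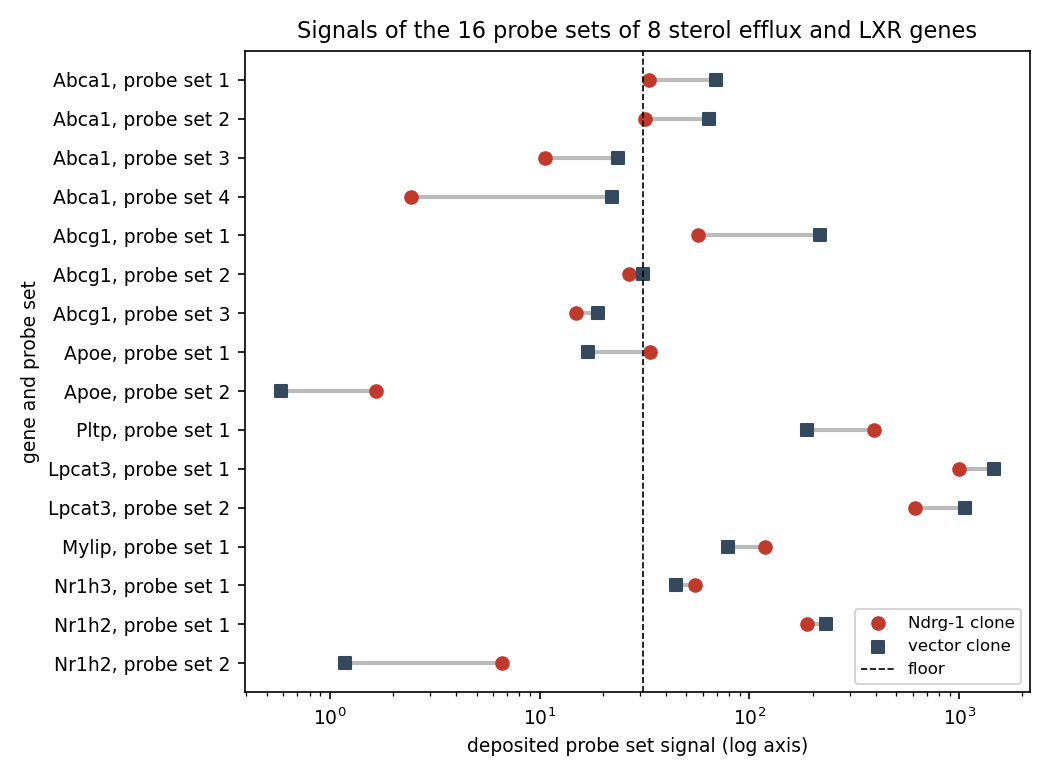
Deposited signal (log axis) of each of the 16 probe sets of the 8 genes, numbered within a gene by signal in the vector clone, with circles for the Ndrg-1 clone, squares for the vector clone (1 array per group, no error bars) and a dashed line at the floor of 31.0. All 4 Abca1 and all 3 Abcg1 probe sets lie further left in the Ndrg-1 clone, while Pltp and Mylip lie further right.

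Abca1 encodes the transporter that loads cholesterol and phospholipid onto lipid-poor apolipoprotein A-I, the first step of high-density lipoprotein (HDL) formation. Its brightest probe set gave 33.3 in the Ndrg-1 clone and 69.1 in the vector clone, a log2 ratio of -1.06 (2.08-fold lower). The second had 31.8 in the Ndrg-1 clone and 64.4 in the vector clone, a ratio of -1.02. These 2 probe sets differed by far less than the SD of 0.29 between probe sets of dim genes. Both read the same RNA on the same arrays, so this says nothing of variation between clones or cultures. The other probe sets were under the floor in both arrays, at 10.6 and 2.44 in the Ndrg-1 clone and 23.5 and 22.0 in the vector clone. At a floor at the 25th percentile of signal they gave -1.15 and, with the Ndrg-1 clone at that floor, -1.53 or lower. All 4 probe sets were thus lower in the Ndrg-1 clone, as held for 13.8% of the 290 genes with 4 probe sets. In the Ndrg-1 clone the 2 brighter probe sets lay just above the floor. Among 1109 other genes of like signal (mean log2 signal within 0.5), the central 95% of log2 ratios ran from -1.19 to 1.298, so a ratio of the size of Abca1's was not rare at this signal. Of those genes 4.15% were at least 2-fold lower. The ratio missed 2-fold with a pseudocount of 16 in place of the floor (-0.79) and with scaling to the hybridisation spikes (-0.51).

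Abca1 is the gene in which the LXR element of the human promoter is best described, and its rat promoter is shown for that reason. The sequence covers 250 bases before and 50 bases after the annotated start, at chr5:72596424-72596723 on the minus strand of GRCr8 (RefSeq). Capitals mark, from left to right, a GC box (GGGCGG), an E-box (CACGTG) and a DR4-like match.
Abca1 promoter: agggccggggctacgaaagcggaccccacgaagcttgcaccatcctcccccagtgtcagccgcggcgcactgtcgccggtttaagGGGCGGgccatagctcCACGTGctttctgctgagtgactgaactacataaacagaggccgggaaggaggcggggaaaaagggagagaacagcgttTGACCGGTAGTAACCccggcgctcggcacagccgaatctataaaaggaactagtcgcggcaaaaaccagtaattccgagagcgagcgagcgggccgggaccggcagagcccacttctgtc
The DR4-like match begins at position -70 from the start and reads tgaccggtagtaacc on the strand shown. On the other strand it fits a repeat of GGTNA with 5 bases between. That pattern was written to fit the element known from human ABCA1, and its presence in the rat gene is given as a description. It was found on either strand in 226 of 33469 promoters of this length (0.675%), and in no other of the 7 genes of the set that were searched, which are all but Abcg1. The stricter repeat of AGGTCA with 4 bases between, whose matches all fit the first pattern as well, occurred in 2 of all promoters and in none of those 7 genes. The E-box was present in 6.42% of all promoters and, among those 7 genes, in Abca1 only. The GC box was present in 33.1% of all promoters and in those of Abca1, Mylip, Lpcat3 and Apoe. Windows of this length leave out most of each gene's control region, and a match or its lack says nothing of which factor was bound in these cells.

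Abcg1 encodes the half-transporter that passes cholesterol to mature HDL particles and moves sterols between membranes. Its brightest probe set had the lowest ratio of the 8 genes, giving 56.7 in the Ndrg-1 clone and 217 in the vector clone, a log2 ratio of -1.94 (3.84-fold lower). Only 0.218% of the measured genes had a lower ratio. Among 1617 genes of like signal the central 95% ran from -0.96 to 1.04, and Abcg1 lay below that range. This ratio was known when the genes were chosen, so its place among other genes is a description only. The other Abcg1 probe sets did not show a difference of that size. The second had 26.8 in the Ndrg-1 clone and 31.2 in the vector clone, and the third had 14.8 and 18.9. With the floor at the 25th percentile their log2 ratios were -0.23 and -0.36. All 3 probe sets were lower in the Ndrg-1 clone, as held for 20.7% of the 1036 genes with 3 probe sets. The size for Abcg1 thus rests on 1 probe set, the only 1 of the 3 clearly above the floor. The median log2 ratio over its probe sets above the floor in 1 or both clones was -0.98 or lower, since the second probe set's ratio is a bound. Whether that median reaches 2-fold is therefore not settled. With the floor at the 75th percentile, Abcg1 was at -0.35 or lower.

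Apoe and Pltp act outside the cell on the lipid that the transporters release. Apoe, the apolipoprotein that accepts cholesterol and carries it to lipoprotein receptors, was near background. Its brighter probe set gave 33.5 in the Ndrg-1 clone and 17.0 in the vector clone, which is under the floor, and the log2 ratio was 0.11 or more (at least 1.08-fold higher). With the floor at the 25th percentile it was 0.97. The dimmer probe set, annotated to the same transcript record, had 1.66 in the Ndrg-1 clone and 0.583 in the vector clone and could not be compared.

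Pltp encodes phospholipid transfer protein, which moves phospholipids between lipoproteins and enlarges HDL. It gave 394 in the Ndrg-1 clone and 188 in the vector clone, a log2 ratio of 1.06 (2.09-fold higher), from its single probe set. Of the measured genes 1.38% had a higher ratio. Its signal lay well above the floor in both arrays, and scaling to the poly-A spikes put it just short of 2-fold, at 0.85. Among 1962 genes of like signal the central 95% ran from -0.64 to 0.67, with 0.459% at least 2-fold higher, and Pltp lay above that range. Although both genes are textbook LXR targets, Pltp and Abca1 stood on opposite sides of 0. The promoter of Pltp is shown as the counterpart to that of Abca1, from chr3:174011933-174012232 on the minus strand of GRCr8 (RefSeq). It has no capitals because none of the 4 motifs searched is in this window.
Pltp promoter: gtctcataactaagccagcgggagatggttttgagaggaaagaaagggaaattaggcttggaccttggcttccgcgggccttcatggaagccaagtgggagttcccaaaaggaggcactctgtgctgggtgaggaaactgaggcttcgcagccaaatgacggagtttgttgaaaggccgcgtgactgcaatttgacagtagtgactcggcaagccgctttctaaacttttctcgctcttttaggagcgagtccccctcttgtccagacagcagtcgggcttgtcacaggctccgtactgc
The windows also differ in CpG dinucleotides, with 27 in Abca1, 27 in Lpcat3, 28 in Mylip and 13 in Pltp, beside a median of 7 over all promoters. Nr1h2 had 15 and Nr1h3 had 4, and the 3 windows listed for Apoe had 3, 10 and 12.

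**Figure D2:**
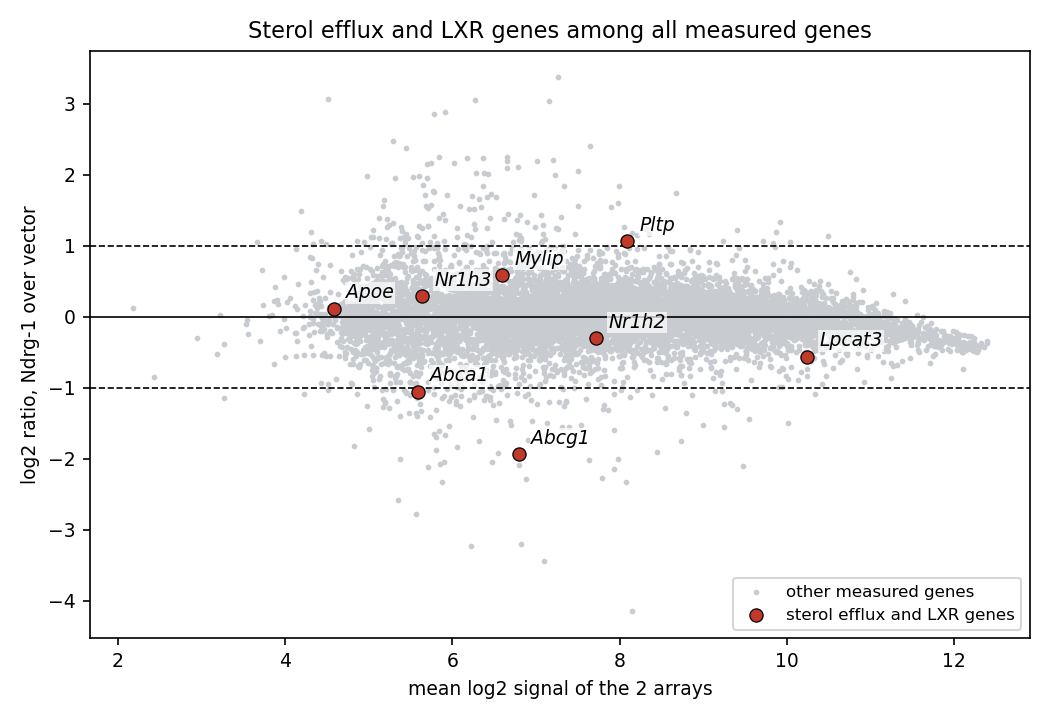
Log2 ratio of Ndrg-1 over vector against the mean log2 signal of both arrays, 1 point per measured gene, with the 8 genes marked and dashed lines at 2-fold. Abcg1 and Pltp stand outside the bulk of genes of like signal, whereas Abca1 lies where the scatter of dim genes is wide. The Abcg1 point is its brightest probe set, whose ratio was known when the genes were chosen. The other Abcg1 probe sets did not show a difference of that size.

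Lpcat3 and Mylip are the LXR targets that act on membranes and on uptake. Lpcat3 encodes the acyltransferase that places polyunsaturated fatty acids into membrane phospholipids. It was bright and lower in the Ndrg-1 clone on both probe sets. The brighter had 994 in the Ndrg-1 clone and 1466 in the vector clone, a log2 ratio of -0.56 (1.48-fold lower). The second had 613 in the Ndrg-1 clone and 1064 in the vector clone, a ratio of -0.80 (1.74-fold lower). Neither reached 2-fold, and with scaling to the hybridisation spikes the brighter was at -0.021. The brighter probe set lay within the central 95% of 862 genes of like signal (-0.62 to 0.43), whose median was -0.04. The second, at -0.80, lay below that range, which was drawn around the signal of the brighter.

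Mylip encodes the ubiquitin ligase, also called IDOL, that marks lipoprotein receptors, among them the VLDL receptor and ApoER2, for degradation. It gave 118 in the Ndrg-1 clone and 78.6 in the vector clone on its only probe set, a log2 ratio of 0.59 (1.502-fold higher). This lay within the central 95% of 1476 genes of like signal (-0.996 to 1.15), and with scaling to the hybridisation spikes it passed 2-fold, at 1.13. Of these receptors, Vldlr was 3.36-fold higher, at 750 in the Ndrg-1 clone and 222 in the vector clone, with its other 3 probe sets at log2 ratios of 1.60, 1.56 and 0.91. Lrp8, which encodes ApoER2, was at 0.13. The transcript of the ligase and that of its substrate Vldlr were thus both higher in the Ndrg-1 clone.

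Neither receptor transcript reached 2-fold. Nr1h3 gave 55.0 in the Ndrg-1 clone and 44.9 in the vector clone, a log2 ratio of 0.29 (1.22-fold higher), from its only probe set. Nr1h2 had 189 in the Ndrg-1 clone and 232 in the vector clone, a ratio of -0.30 (1.24-fold lower) that turned to 0.24 when the arrays were scaled to the hybridisation spikes, which moved the median of all genes to 0.53. Under that scaling Nr1h3 was at 0.83. The second Nr1h2 probe set, at 6.64 in the Ndrg-1 clone and 1.18 in the vector clone, was far under the floor. Transcript levels do not measure receptor activity.

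**Figure D3:**
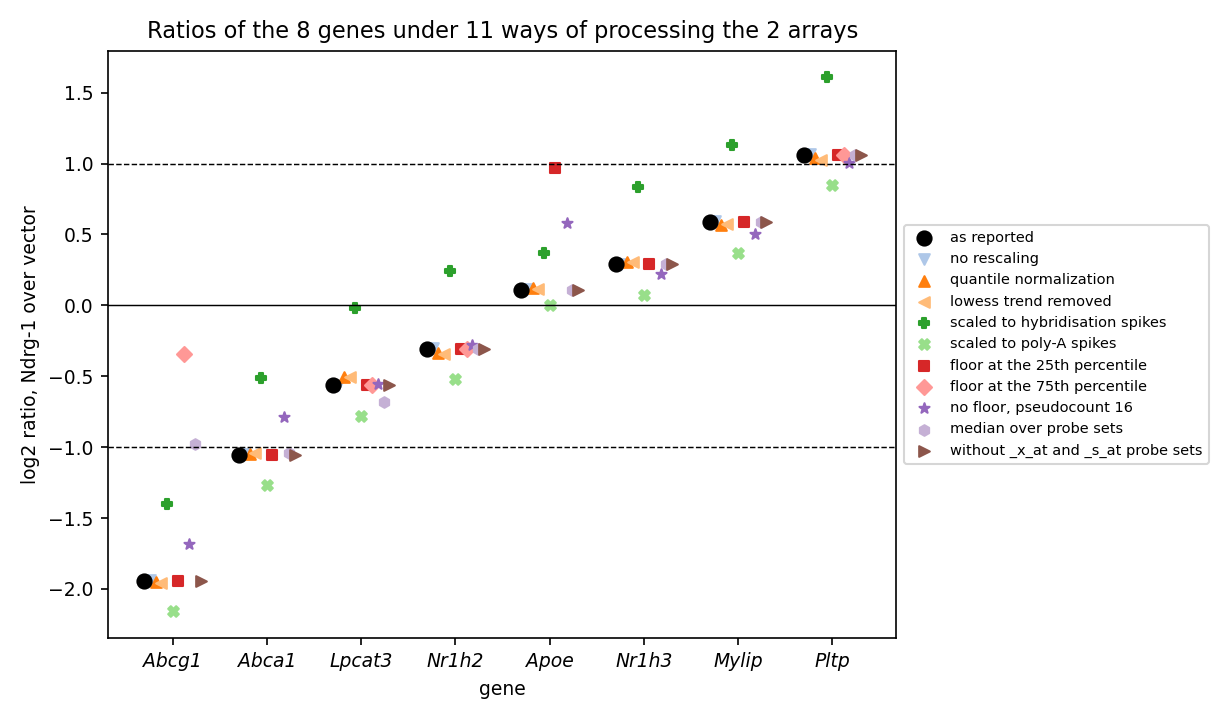
Log2 ratio of each of the 8 genes as reported (black circles) and under the 10 alternative settings, with dashed lines at 2-fold. Abcg1 and Abca1 stay below 0 and Pltp, Mylip, Nr1h3 and Apoe above it in every setting that gave a value, Nr1h2 changes sign with scaling to the hybridisation spikes, and Lpcat3 comes to -0.021 there.

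The genes around the receptors were then read from lists written for this set with earlier results of these data known. Counts within the lists are thus a description. Scaling to the hybridisation spikes adds 0.54 to each ratio above the floor, so a ratio between -0.54 and 0 below is above 0 under that scaling. Over all 9182 measured genes, 4557 had a ratio below 0 and 4625 above. Of 15 other LXR target genes on the array, 6 were measured, 5 of them with a ratio below 0 and 1 above. Of those below 0, Scd, Mlxipl and Tmem135 were under the floor in the Ndrg-1 clone. They counted as measured through the vector clone alone, so their ratios are bounds that could only fall below 0. Scd, the stearoyl-CoA desaturase, had 19.3 in the Ndrg-1 clone and 290.0 in the vector clone, at least 9.38-fold lower, and was the 1 member of that list to reach 2-fold. Srebf1, the lipogenic transcription factor, was at -0.64 and the fatty acid synthase gene Fasn at -0.14. Mertk, a receptor for apoptotic cell uptake, was highest at 0.89. Abcg5, Abcg8, Lpl, Apoc1 and Cyp7a1 were among the 9 under the floor in both arrays. The list mixes targets that LXR shares with the sterol-regulated transcription factor SREBP, such as Scd and Fasn, with others, and its median was -0.30. That median rests on the bounds for Mlxipl and Tmem135.

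Genes that make or break down LXR ligands had ratios below 0 in 6 of 6 measured members, beside 4557 of 9182 genes. The median of the 6 was -0.41, inside the span that changes sign with the hybridisation spikes, and none was at 2-fold. Dhcr7, the last reductase of cholesterol synthesis, was lowest at -0.97 (93.5 in the Ndrg-1 clone and 183 in the vector clone). Cyp27a1, which makes 27-hydroxycholesterol, was at -0.43, and Hsd3b7, which acts on hydroxylated sterols in bile acid synthesis, was highest at -0.10. The measured members other than Cyp27a1 and Hsd3b7, Dhcr7 among them, are cholesterol synthesis genes. The hydroxylase genes Ch25h and Cyp46a1, which make other oxysterol ligands, were under the floor in both arrays. Among RXR partners and cofactors 13 of 16 on the array were measured, 8 above and 5 below 0, with a median of 0.09 and none at 2-fold. Their ratios ran from -0.37 for the coactivator Ncoa3 to 0.31 for the acetyltransferase Crebbp. A second Ncoa3 probe set, with the vector clone under the floor, was at 0.57 or more. Rxrb had 47.3 in the Ndrg-1 clone and 58.8 in the vector clone (-0.32), and Rxra and Rxrg were under the floor in both.

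Relatives of the transporters and of Lpcat3 did not reach 2-fold. Of the other ABCA and ABCG transporters 4 were measured, from Abca7 at -0.36 to Abcg3l1 at 0.46, and Abcg4, the closest relative of Abcg1, was under the floor in both arrays. Of 10 other phospholipid acyl exchange enzymes 6 were above 0 and 4 below. Lpcat1, which remodels phosphatidylcholine, was highest at 0.68 (566 in the Ndrg-1 clone and 351 in the vector clone), opposite in sign to Lpcat3, and Mboat7 was lowest at -0.39. In sterol storage, transport and HDL handling 10 of 14 measured genes were below 0, beside 4557 of 9182 over all genes. The median of this list was -0.18, and none reached 2-fold. The sterol carrier Stard4 was lowest at -0.89, with its other probe sets at -0.67 and 0.13, and the HDL receptor Scarb1 was at -0.60. Lcat, which esterifies cholesterol on HDL, was highest at 0.18. Among 7 SREBP control genes 5 were below 0 and 2 above, with a median of -0.21. Insig1, the sterol-dependent retention protein, was 2.07-fold lower at 391 in the Ndrg-1 clone and 807 in the vector clone. Scaling to the hybridisation spikes brings its log2 ratio of -1.05 short of 2-fold. Scap was highest at 0.34.

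**Figure D4:**
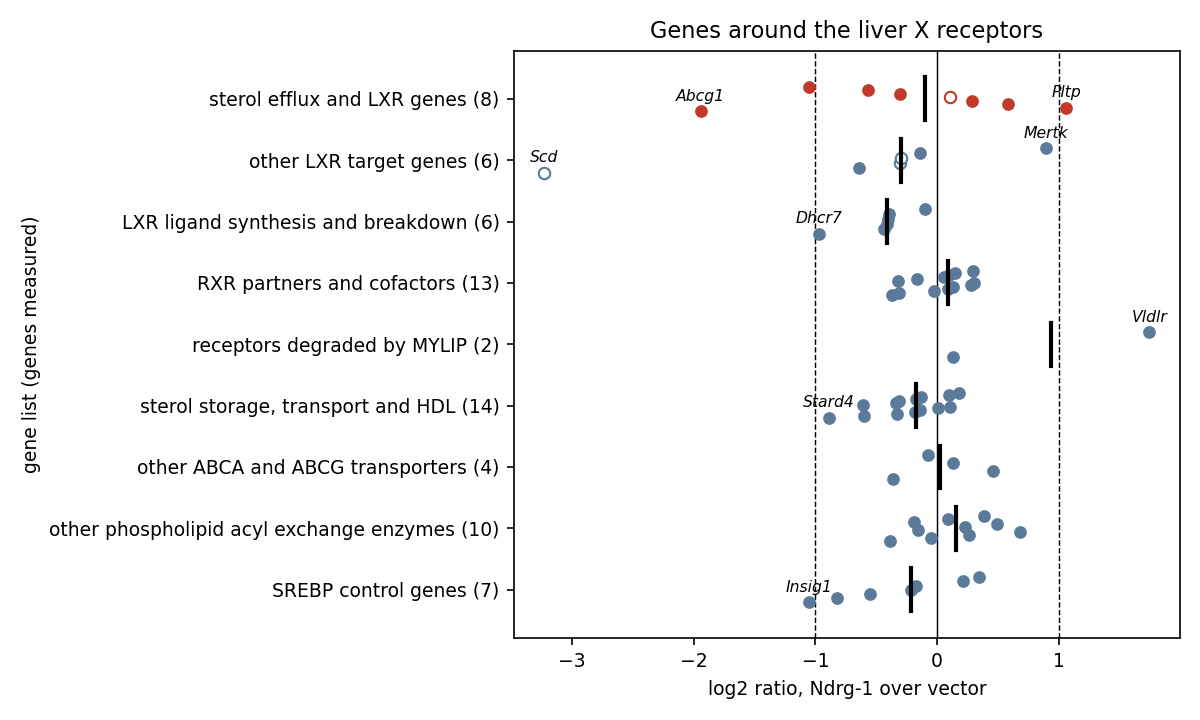
Log2 ratios of measured genes in each list (points, open where 1 array lay under the floor, jittered vertically), with black bars at the list medians and dashed lines at 2-fold. The 8 genes run from -1.94 to 1.06, the other LXR target genes from -3.23 (Scd, a bound) to 0.89, and the RXR partners and cofactors from -0.37 to 0.31.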

How the data were processed

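Affymetrix arrays of total RNA from 2 AT6.1 clones were compared, 1 array per group. The deposited values are 1 intensity (linear probe set signal) per probe set and array, which GCOS 1.3 produced, per the submitters' processing notes. How probes were summarised and which genome build was used is not given in the sources used here. The mean without the lowest and highest 2% of signals came to 150.0 on each array, so the deposited values share a scale. Genes came from the platform annotation and gene ID matches to RefSeq (GRCr8), which covered all 8 genes and 20758 of 20826 probe sets with 1 symbol. The 57 control probe sets were set apart.

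The vector signals were multiplied by a constant that put the median log2 ratio of the brighter probe sets at 0. A difference was counted from 2-fold. With 1 array per group there was no test, and the number of arrays limits the precision. The genes, lists and settings were chosen with earlier results of these data known. Named list genes are those at 2-fold and the lowest and highest of each list. Others (Srebf1, Fasn, Cyp27a1, Rxrb, Scarb1, Vim, and genes under the floor in 1 or both clones) were picked after their values were seen. The rescaling and the calls at 2-fold were tested on simulated data, with differences well past 2-fold placed in genes well above the floor. Differences near 2-fold, and differences in dim genes, were not simulated. The bounds, the ranges of like signal and the motif search were not tested. The 10 alternatives change the scaling, the floor, a pseudocount of 16 or the choice of probe set. Python 3.11.15, numpy 2.4.6, pandas 2.3.3, statsmodels 0.14.6 and matplotlib 3.10.9 were used.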

Additional observations from a re-analysis of the deposited data

How the results depend on the processing

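Of the 10 alternatives, quantile normalization and removal of a lowess trend moved none of the 8 ratios by as much as the SD between probe sets of a gene (0.23). Dropping the probe sets named _x_at and _s_at could not move them, since 0 of the 16 are so named, and no rescaling undoes a shift of only 0.0048. Scaled to the 18 hybridisation spikes, which moved the median gene to 0.53, the log2 ratios were -0.51 for Abca1, -1.40 for Abcg1, 1.13 for Mylip, -0.021 for Lpcat3, 1.61 for Pltp, 0.37 for Apoe, 0.83 for Nr1h3 and 0.24 for Nr1h2, with a median of 0.30. Then 1 of the 8 was at least 2-fold lower and 2 higher, and over all genes 43 were lower and 732 higher, against 138 lower and 149 higher as reported. Scaled to the 24 poly-A spikes (median gene at -0.21), 2 of the 8 were 2-fold lower and 0 higher. Over all 9200 genes measured under that scaling, 240 were lower and 101 higher. With a pseudocount of 16 and no floor Abca1 was at -0.79, Abcg1 at -1.69 and Apoe at 0.58. Of the 8, 1 was then 2-fold lower, beside 149 of 14217 genes. At a floor at the 25th percentile Apoe was at 0.97, and over all genes 463 were lower and 444 higher. At a floor at the 75th percentile 4 of the 8 were measured, Abcg1 was at -0.35 or lower, 0 of the 8 were 2-fold lower, and over all genes 34 were lower and 23 higher, with fewer genes tested. With the median over probe sets Abcg1 was at -0.98 or lower and 1 of the 8 was counted as 2-fold lower, beside 129 of 9189 genes. The hybridisation and poly-A spikes moved in opposite directions; the cause was not tested. No paired analysis was possible because each group had 1 array. Signals of Abca1, Apoe and Nr1h3 near the floor limit what can be said of their size.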
